A study of Mus musculus with 12 samples.

Results

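The BCL2 family of cell death regulators was described through 10 of its genes, read by name from a table of 54532 genes in resident peritoneal macrophages of C57BL/6 mice. The members were 6 pro-survival genes (Bcl2, Bcl2l1, Mcl1, Bcl2a1a, Bcl2a1b and Bcl2a1d), 2 effectors (Bax and Bak1) and 2 BH3-only genes (Bcl2l11 and Pmaip1). All 10 had enough counts to be tested, as had 14506 genes in all. Cells had spent 24 h in basic DMEM, with either MOPS or HEPES as its buffer, before they were left untreated or given 10 ng/ml of lipopolysaccharide (LPS, a bacterial cell-wall molecule) for 2 h. The 4 groups, each of 3 RNA-seq libraries, were HEPES and MOPS without LPS and HEPES and MOPS with LPS. The study set out to examine extracellular acidity, as its title says. The design text gives pH 6.8 and 7.4 and then MOPS and HEPES, so that pH 6.8 belongs to MOPS by word order only. Buffer and pH changed together and cannot be told apart, and the comparisons below are between the 2 media as wholes. The labels name no genetic change, give neither the age nor the sex of the mice, and do not say whether libraries of a group came from separate mice or cultures. The p-values therefore measure the spread between these libraries, which may be technical.

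BCL2 family proteins decide whether the outer mitochondrial membrane stays intact. Pro-survival members such as MCL1, BCL-XL, BCL2 and A1 bind and restrain the effectors BAX and BAK, which can otherwise form pores through which cytochrome c leaves and activates caspases. BH3-only proteins such as BIM and NOXA start the process by occupying the pro-survival proteins, and BIM also engages the effectors directly. In macrophages, signalling from Toll-like receptors is known to induce A1 and MCL1, and A1 is a known NF-kappaB target. Only RNA was measured here, and these proteins are also regulated by their stability and modification.

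The libraries held 20114613 to 24734853 counts each. Levels are given in CPM (counts scaled to a common library size) after TMM scaling, an edgeR procedure that sets library sizes so that most genes do not change. The TMM factors were 1.19 to 1.22 in untreated and 0.8 to 0.863 in LPS-treated libraries. Scaling by total counts alone instead left media comparisons nearly where they were, but the median log2 fold change of all genes dropped by 0.585 for LPS in HEPES and dropped by 0.512 for LPS in MOPS. An LPS increase smaller than that shift has the opposite sign without TMM. Among the members this concerns Bax and Bak1. The sizes of the other LPS changes depend on the scaling too. Over all alternative settings and left-out libraries, the lowest log2 change in HEPES was 0.58 for Mcl1, 0.95 for Bcl2l11 and -0.86 for Pmaip1. With TMM these were 1.16, 1.53 and -0.28. In MOPS the lowest for Pmaip1 was 0.27, beside 0.79. With LPS 76.9% of all genes were called (edgeR adjusted p under 0.05) in HEPES and 69.0% in MOPS. The premise that most genes do not change is therefore strained. Of 8 macrophage markers none was at 0 in any group. Their summed level was 25780 to 27150 CPM in HEPES and 27250 to 29010 CPM with LPS. In MOPS it was lower, at 16470 to 16740 CPM and 17210 to 19550 CPM with LPS. Most of this sum was Lyz2, with means of 21982 and 12599 CPM in HEPES and MOPS, and 23350 and 13827 CPM with LPS. Markers of B cells, which share the peritoneal cavity, summed to 34.51 to 219.7 CPM, and those of T and NK cells stayed at or below 4.31 CPM. Dendritic cell and monocyte markers summed to 37.49 to 48.39 CPM, and neutrophil and mast cell markers to 17.85 to 33.88 CPM. Mesothelial, stromal and endothelial markers summed to 6.325 to 9.358 CPM. The part of these cells in the values of the members was not tested. In a bulk sample, fewer cells of a type and less RNA per cell cannot be told apart.

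LPS moved most members, and in both media. In HEPES 6 of the 10 rose and 3 fell, with Bax not called, where 76.9% of all genes were called (35.6% higher, 41.2% lower). In MOPS 7 rose and 2 fell, with Bak1 not called, where 69.0% of all genes were called (34.1% higher, 34.9% lower). The median log2 fold change of the members was 0.72 in HEPES and 1.03 in MOPS, beside -0.08 and -0.03 over all genes. The 3 Bcl2a1 copies, whose sequences are nearly identical, count as 3 of the 10 members here, so they weigh on these counts and medians. By role the medians in HEPES and MOPS were 2.29 and 2.41 (pro-survival), 0.172 and 0.125 (effectors) and 0.629 and 1.61 (BH3-only). A gene is called here at a Benjamini-Hochberg adjusted p under 0.05 by edgeR's quasi-likelihood test, over all genes tested.

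**Figure D1:**
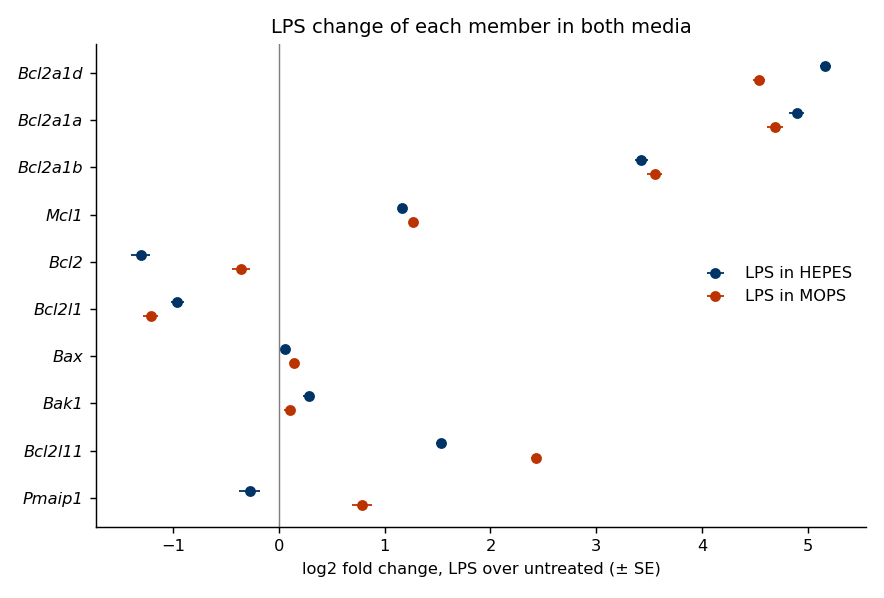
Log2 fold change of each member, LPS over untreated, in HEPES (dark blue) and MOPS (red), with the standard error of the fit as horizontal bars (many are shorter than the point). The Bcl2a1 copies rose most, Bcl2 and Bcl2l1 fell in both media, and Pmaip1 lies on opposite sides of 0.

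Mcl1, a short-lived protein that many cells need without pause, was the most abundant member per length before LPS. Mcl1 (ENSMUSG00000038612, mm10 chr3:95658788-95663176, plus strand) was at 801, 820.0 and 816 CPM in HEPES and at 593, 589 and 572 CPM in MOPS. With LPS it was at 1789, 1828 and 1840.0 CPM in HEPES and at 1437, 1362 and 1425 CPM in MOPS. No pair of groups overlapped, and the order was HEPES with LPS, MOPS with LPS, HEPES, MOPS. LPS raised Mcl1 2.24-fold in HEPES (log2 1.16 ± 0.04 (SE), n = 3 a group, edgeR adjusted p = 1.17e-23) and 2.41-fold in MOPS (1.27 ± 0.04, adjusted p = 2.36e-24). It was lower in MOPS than in HEPES both without LPS (log2 -0.47 ± 0.03, edgeR adjusted p = 7.94e-13) and with LPS (-0.37 ± 0.03, adjusted p = 1.33e-10). The LPS change itself differed between media by 0.10 ± 0.05 on the log2 scale and was not called (edgeR adjusted p = 0.0923), though it was under scaling by total counts (0.18, adjusted p = 0.00286).

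Bcl2a1a, Bcl2a1b and Bcl2a1d are copies of 1 ancestral gene that encodes A1, and lie on chromosome 9. In mm10 they are at chr9:88956900-88962419 (Bcl2a1a, ENSMUSG00000102037, plus strand), chr9:89199209-89207827 (Bcl2a1b, ENSMUSG00000089929, plus strand) and chr9:88723285-88731914 (Bcl2a1d, ENSMUSG00000099974, minus strand). Their likeness limits how far counts can be assigned to 1 copy, so the opening of their coding sequences is shown. These are the first 60 of 516 coding bases of each in GENCODE vM21 transcripts, 5′ to 3′, with capitals where the copies do not all have the same base (6 positions here, 12 in all 516).
Bcl2a1a: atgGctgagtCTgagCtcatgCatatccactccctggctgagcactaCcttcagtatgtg
Bcl2a1b: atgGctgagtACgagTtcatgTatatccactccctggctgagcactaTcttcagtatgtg
Bcl2a1d: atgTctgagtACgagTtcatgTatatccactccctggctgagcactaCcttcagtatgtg
Identity over all coding bases was 97.87% between Bcl2a1a and Bcl2a1b, 98.64% between Bcl2a1a and Bcl2a1d and 98.84% between Bcl2a1b and Bcl2a1d. Of all 100-base windows of the transcripts, 43.47% of Bcl2a1a, 31.06% of Bcl2a1b and 54.71% of Bcl2a1d also occurred in another copy. How reads that fit several copies were counted is not given in the sources used here, so the value of a single copy is uncertain. Bcl2a1b also shares 401 exonic bases with Gm29094 on the same strand, whose count was 0.132% of that of Bcl2a1b. How reads from those bases were counted is not given either, which bears on the level, rank and share of Bcl2a1b. The sum of the copies is given beside the single values. It is uncertain too if reads that fit several copies were left out of the counts.

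All these copies were low before LPS and rose steeply with it. Bcl2a1a was at 6.82, 8.95 and 6.97 CPM in HEPES and at 4.19, 5.36 and 4.36 CPM in MOPS. With LPS Bcl2a1a was at 229, 222 and 225 CPM in HEPES and at 122, 116 and 124 CPM in MOPS. Its groups did not overlap, with the same order as for Mcl1. Bcl2a1b was at 29.7, 36.4 and 29.5 CPM in HEPES and at 18.5, 18.3 and 17.6 CPM in MOPS. With LPS Bcl2a1b was at 335, 353 and 340 CPM in HEPES and at 227, 200.03 and 211 CPM in MOPS. Here too no groups overlapped. Bcl2a1d was at 16.9, 19.4 and 17.5 CPM in HEPES and at 12.5, 13.5 and 11.7 CPM in MOPS. With LPS Bcl2a1d was at 652, 649 and 627 CPM in HEPES and at 314, 283 and 284 CPM in MOPS. It was the copy with the highest level of the 3 after LPS, whereas Bcl2a1b was the highest before.

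In HEPES the rise with LPS was 29.7-fold for Bcl2a1a, 10.8-fold for Bcl2a1b and 35.9-fold for Bcl2a1d, on the log2 scale 4.89 ± 0.07, 3.43 ± 0.06 and 5.17 ± 0.06. In MOPS it was 25.8-fold, 11.7-fold and 23.2-fold in the same order (log2 4.69 ± 0.08, 3.55 ± 0.07 and 4.54 ± 0.06). The largest edgeR adjusted p among these 6 values was 7e-22 (Bcl2a1b in MOPS). Summed over the copies and Bcl2a1c, the rise was 21.12-fold in HEPES (log2 4.40 ± 0.06) and 17.7-fold in MOPS (4.15 ± 0.06). The difference of the LPS changes was -0.25 ± 0.08 for this sum (edgeR adjusted p = 0.0193). By copy it was called for Bcl2a1d alone (-0.63 ± 0.08, adjusted p = 2.47e-07). It stood at -0.20 ± 0.12 for Bcl2a1a (adjusted p = 0.175, but 0.0154 without HEPES replicate 5) and at 0.12 ± 0.09 for Bcl2a1b (adjusted p = 0.308).

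Between media, every copy was lower in MOPS. Without LPS the log2 difference was -0.70 ± 0.10 for Bcl2a1a, -0.81 ± 0.07 for Bcl2a1b and -0.50 ± 0.07 for Bcl2a1d. With LPS it was -0.90 ± 0.05, -0.69 ± 0.06 and -1.13 ± 0.04 in that order. The largest edgeR adjusted p of these 6 was 1.58e-06, for Bcl2a1a without LPS. The proportions of the copies differed too, though they rest on the uncertain values of single copies. Per kilobase of gene length, Bcl2a1d made up 30.2% ± 1.23 (SD, n = 3) of the 3 copies in HEPES and 51.8% ± 0.51 with LPS. In MOPS the share of Bcl2a1d was 34.3% ± 0.77 and 45.5% ± 0.83. Bcl2a1b went the other way, from 56.5% to 29.1% in HEPES and from 52.3% to 34.8% in MOPS. The fourth copy, Bcl2a1c, had 0 counts in every untreated library, 1 count over the MOPS libraries with LPS and 3, 4 and 9 counts in the HEPES libraries with LPS, and was not tested.

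Stretches of promoter are shown because these members moved together. They come from RefSeq windows on GRCm38.p6 (250 bases before to 50 after the start), which held 9 of the 10 members, and are printed on the gene's strand. Capitals mark a match to the AP-1 motif TGANTCA in the Bcl2a1 copies and, on the opposite strand, to an NF-kappaB motif in Mcl1 (GGG, any 2 bases, then TTTCC). Both strands were searched. The lines are chr9:88956780-88956839 (plus strand), chr9:89199089-89199148 (plus), chr9:88731925-88731984 (minus), chr9:114329885-114329944 (plus) and chr3:95658661-95658720 (plus).
Bcl2a1a: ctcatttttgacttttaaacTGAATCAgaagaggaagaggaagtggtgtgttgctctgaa
Bcl2a1b: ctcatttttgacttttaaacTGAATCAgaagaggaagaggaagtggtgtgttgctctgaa
Bcl2a1d: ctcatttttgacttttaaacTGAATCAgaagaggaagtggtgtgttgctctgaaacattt
Bcl2a1c: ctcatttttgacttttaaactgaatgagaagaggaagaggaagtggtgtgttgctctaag
Mcl1: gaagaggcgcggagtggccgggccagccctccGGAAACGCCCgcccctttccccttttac
The AP-1 match began at -120 in Bcl2a1a, at -164 in Bcl2a1b and at -114 in Bcl2a1d, counted so that -1 is the base before the RefSeq start. The aligned promoter windows of these copies were 97.96% to 99.22% identical, so the match is 1 shared sequence and not 3 independent ones. The window of Bcl2a1c held no match. Of all 32851 promoter windows, 7.808% held TGANTCA and 1.629% held this NF-kappaB motif. The window of Bcl2l1, which fell with LPS, also held the NF-kappaB motif, starting at -218. No window of the Bcl2a1 copies held this NF-kappaB motif. None of the 12 windows of members held a CRE motif (TGACG followed by TCA, in 1.79% of all windows), a C/EBP motif (TTGC, any 2 bases, AA, in 10.797%) or a pair of ISRE half-sites (GAAA, any 2 bases, GAAA, in 3.443%). A match describes letters only and is no measured site.

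Bcl2l1, which encodes BCL-XL, fell with LPS and was lower in MOPS. Bcl2l1 (ENSMUSG00000007659, chr2:152780668-152831728, minus strand) was at 90.5, 95.9 and 104 CPM in HEPES and at 63.5, 61.9 and 60.8 CPM in MOPS. With LPS it was at 45.7, 51.2 and 52.2 CPM in HEPES and at 23.3, 27.7 and 29.5 CPM in MOPS. The 4 groups were separate, and MOPS with LPS was lowest. LPS lowered Bcl2l1 1.95-fold in HEPES (log2 -0.96 ± 0.06, edgeR adjusted p = 6.73e-13) and 2.32-fold in MOPS (-1.21 ± 0.07, adjusted p = 6.14e-14). MOPS was below HEPES 1.56-fold without LPS (log2 -0.64 ± 0.06, edgeR adjusted p = 2.9e-09) and 1.85-fold with LPS (-0.89 ± 0.07, adjusted p = 1.47e-10). The deeper fall in MOPS (difference -0.25 ± 0.09, edgeR adjusted p = 0.037) was close to the threshold. It was not called without MOPS replicate 1 (adjusted p = 0.0785) or 2 (0.0624), HEPES replicate 4 (0.0895) or 5 (0.0685), MOPS with LPS replicate 7 (0.0584) or HEPES with LPS replicate 11 (0.0504), nor with total counts alone (0.166).

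Bcl2, the founding member of the family, stood at like levels in both media until LPS was given. Bcl2 (ENSMUSG00000057329, chr1:106538178-106714274, minus strand) was at 25.2, 24.3 and 26.1 CPM in HEPES and at 25.3, 26.6 and 28.0 CPM in MOPS. With LPS it was at 9.25, 11.01 and 10.3 CPM in HEPES and at 17.4, 21.0 and 24.0 CPM in MOPS. The untreated groups overlapped, and the HEPES libraries with LPS lay below all others. LPS lowered Bcl2 2.47-fold in HEPES (log2 -1.31 ± 0.09, edgeR adjusted p = 8.84e-14) and 1.28-fold in MOPS (-0.36 ± 0.08, adjusted p = 0.000352). The difference of these changes was 0.95 ± 0.13 (edgeR adjusted p = 3.86e-07), and with LPS Bcl2 was 2.04-fold higher in MOPS (log2 1.03 ± 0.10, adjusted p = 2.34e-10). Markers of B cells, which express Bcl2, moved the same way with LPS. Their summed level was 105.2 to 175.2 CPM in HEPES and 34.51 to 39.27 CPM with LPS, against 211.4 to 219.7 CPM in MOPS and 123.7 to 137.2 CPM with LPS. Of 8 tested B cell markers of 9, all 8 fell with LPS in HEPES and 7 in MOPS, and 7 were higher and 1 lower in MOPS than in HEPES with LPS. Over all genes 41.2% fell with LPS in HEPES and 34.9% in MOPS. Between media with LPS, 26.9% of all genes were called in each direction. Without LPS 5 of the B cell markers were higher in MOPS and 1 lower (24.3% and 25.4% of all genes). Bcl2 differed there by 0.08 ± 0.08 on the log2 scale (edgeR adjusted p = 0.424). The part of B cells in the Bcl2 values was not tested.

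**Figure D2:**
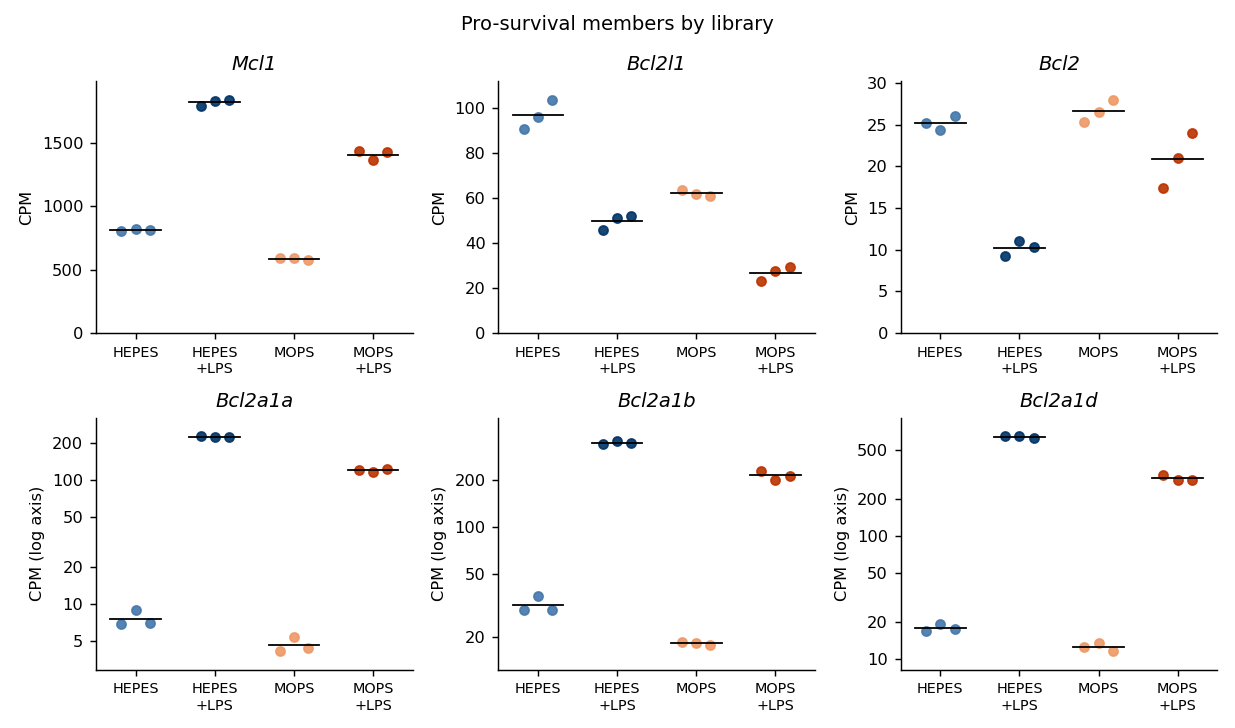
TMM-scaled CPM of the 6 pro-survival members in each library (points) with the group mean (line), on a linear axis from 0 for Mcl1, Bcl2l1 and Bcl2 and on a log axis for the Bcl2a1 copies. Mcl1 and the copies were highest in HEPES with LPS, while Bcl2l1 was highest in untreated HEPES and Bcl2 lowest in HEPES with LPS.

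The effectors had changes of at most 0.28 on the log2 scale, with TMM scaling, in any of the LPS or media comparisons. Bax (ENSMUSG00000003873, chr7:45461697-45466898, minus strand), whose protein moves from the cytosol into the mitochondrial membrane, was at 102, 109 and 107 CPM in HEPES and at 114, 119 and 112 CPM in MOPS. After LPS it was at 111, 108 and 112 CPM in HEPES and at 132, 128 and 121 CPM in MOPS. The MOPS libraries with LPS were highest, and the HEPES groups overlapped. The LPS change of Bax was 0.06 ± 0.04 in HEPES (edgeR adjusted p = 0.209) and 0.15 ± 0.04 in MOPS (adjusted p = 0.00356) on the log2 scale. With total counts alone it was -0.53 and -0.37, called lower in both media (edgeR adjusted p = 1.15e-12 and 3.13e-09). The LPS change in HEPES was called higher, at 0.10 to 0.12, with DESeq2, RLE size factors, a fit of the HEPES groups only, or on leaving out replicate 7 (adjusted p = 0.0275) or 8 (0.0321) of MOPS with LPS, or replicate 11 of HEPES with LPS (0.0356). Bax was higher in MOPS than in HEPES by 0.20 ± 0.04 with LPS (edgeR adjusted p = 0.00023) and by 0.12 ± 0.04 without (adjusted p = 0.0233). The latter was not called without MOPS replicate 2 (adjusted p = 0.14), HEPES replicate 4 (0.135) or HEPES replicate 6 (0.0505), nor with no filter on low counts (0.0581).

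Bak1 encodes BAK, which sits in the outer mitochondrial membrane all along. Bak1 (ENSMUSG00000057789, chr17:27019810-27029009, minus strand) was at 42.7, 47.9 and 44.0 CPM in HEPES and at 41.8, 43.2 and 42.5 CPM in MOPS. LPS-treated libraries had it at 54.5, 52.7 and 56.7 CPM in HEPES and at 45.8, 45.0 and 46.4 CPM in MOPS. Only HEPES with LPS stood apart from the other 3 groups, above them. The log2 change with LPS was 0.28 ± 0.05 in HEPES (edgeR adjusted p = 9.9e-06) and 0.11 ± 0.05 in MOPS (adjusted p = 0.0747). With total counts alone these were -0.30 and -0.41, both called lower (edgeR adjusted p = 3.22e-06 and 2.38e-08). With LPS Bak1 was lower in MOPS (log2 -0.26 ± 0.05, edgeR adjusted p = 0.000113), and without LPS the media differed by -0.08 ± 0.05 (adjusted p = 0.206). The difference of the LPS changes, -0.18 ± 0.07, lay at the threshold (adjusted p = 0.0509). It was called by DESeq2 (adjusted p = 0.0311), with RLE size factors (0.018), and on leaving out HEPES replicate 5 (0.0159), replicate 7 (0.0204) or 8 (0.0322) of MOPS with LPS, or any 1 library of HEPES with LPS (replicate 10, 0.0202, replicate 11, 0.0115, or replicate 12, 0.0415). Bak1 shares 437 exonic bases with Ggnbp1 on the other strand, whose count was 3.986% of that of Bak1.

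Bcl2l11, the gene of BIM, rose with LPS in both media and further in MOPS. Bcl2l11 (ENSMUSG00000027381, chr2:128126038-128162547, plus strand) was at 63.3, 63.3 and 58.1 CPM in HEPES and at 66.3, 60.4 and 62.7 CPM in MOPS. Under LPS it was at 173, 185 and 177 CPM in HEPES and at 349, 344 and 327 CPM in MOPS. The untreated groups overlapped, and the LPS groups were apart from them and from each other. The rise was 2.89-fold in HEPES (log2 1.53 ± 0.05, edgeR adjusted p = 8.24e-24) and 5.39-fold in MOPS (2.43 ± 0.05, adjusted p = 8.06e-29). The difference of the LPS changes was 0.90 ± 0.06 (edgeR adjusted p = 1.79e-12), and over all alternatives it was 0.83 to 0.97. Before LPS the media differed by 0.04 ± 0.05 (adjusted p = 0.562) and with LPS by 0.93 ± 0.04 (adjusted p = 7.53e-18), a 1.91-fold higher level in MOPS.

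Pmaip1, which encodes NOXA, a BH3-only protein that binds MCL1 and A1, differed in direction between media. Pmaip1 (ENSMUSG00000024521, chr18:66458604-66465550, plus strand) was at 10.8, 9.12 and 10.2 CPM in HEPES and at 10.3, 8.72 and 10.8 CPM in MOPS. After LPS its values were 8.38, 8.35 and 8.18 CPM in HEPES and at 17.7, 16.7 and 16.9 CPM in MOPS. The untreated groups overlapped, MOPS with LPS lay above every other library, and HEPES with LPS lay below. In MOPS Pmaip1 rose 1.73-fold (log2 0.79 ± 0.09, edgeR adjusted p = 9.24e-09). In HEPES it fell 1.21-fold (-0.28 ± 0.10, edgeR adjusted p = 0.016), a call that was lost with DESeq2 (adjusted p = 0.0616) and without HEPES replicate 4 (0.0721) or HEPES with LPS replicate 10 (0.068), 11 (0.0712) or 12 (0.0935). This change in HEPES ranged from -0.86 to -0.22 over all alternatives. The difference of the LPS changes was 1.06 ± 0.14 (edgeR adjusted p = 2.69e-07), from 0.97 to 1.14 over all alternatives. With LPS the level was 2.06-fold higher in MOPS (log2 1.04 ± 0.10, adjusted p = 2.55e-10), and without LPS the media differed by -0.02 ± 0.10 (adjusted p = 0.862). The B cell markers given beside Bcl2 were also higher in MOPS than in HEPES with LPS, but fell with LPS in MOPS, where Bcl2l11 and Pmaip1 rose. Their part in these differences between media was not tested.

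**Figure D3:**
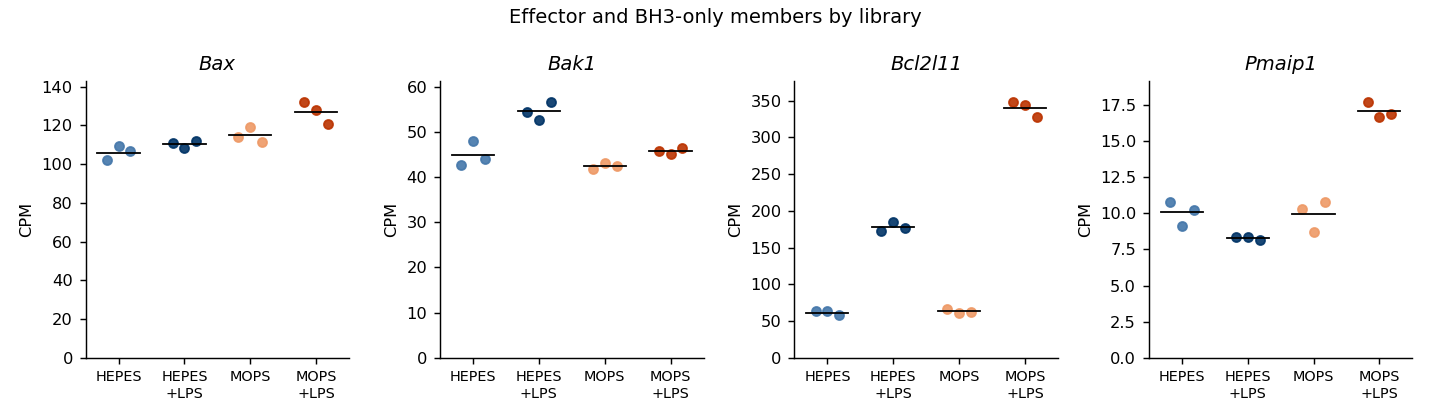
TMM-scaled CPM of the effectors Bax and Bak1 and of the BH3-only genes Bcl2l11 and Pmaip1 in each library (points) with the group mean (line), on linear axes from 0. For Bcl2l11 and Pmaip1 the untreated groups overlap and MOPS with LPS is the highest group, whereas the groups of Bax and Bak1 lie close together.

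The media comparisons are set side by side here. Without LPS 5 of the 10 were lower in MOPS than in HEPES, all of them pro-survival genes (Mcl1, Bcl2l1 and the 3 copies), and Bax was higher. Among all genes 49.7% were called (24.3% higher, 25.4% lower). With LPS 6 were lower in MOPS (the same 5 and Bak1) and 4 higher (Bcl2, Bax, Bcl2l11 and Pmaip1), where 53.8% of all genes were called (26.9% in each direction). The median of the members was -0.28 without LPS and -0.31 with it, beside -0.01 and 0.00 over all genes. These counts and medians again take the 3 near-identical copies as 3 members, so they do not describe a shift of the whole family. Without and with LPS, the medians were -0.57 and -0.79 for pro-survival genes, 0.02 and -0.03 for effectors and 0.01 and 0.99 for BH3-only genes. The LPS change differed between media for 5 members, more positive in MOPS for Bcl2, Bcl2l11 and Pmaip1 and more negative for Bcl2l1 and Bcl2a1d, where 39.4% of all genes were called (21.9% higher, 17.6% lower). These contrasts share libraries with the LPS comparisons, so they are not independent of them.

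Levels of different genes were compared per kilobase of the gene length in the table. The 6 pro-survival members summed to 331 ± 10.2 CPM per kilobase (SD, n = 3) in HEPES and 230.0 ± 5.04 in MOPS. With LPS the sum was 1983 ± 17.9 in HEPES and 1168 ± 48.6 in MOPS. Mcl1 held 71.9% of the sum in HEPES and 74.4% in MOPS before LPS, but 26.8% and 35.3% after it. The Bcl2a1 copies went from 20.8% to 72.6% in HEPES and from 18.5% to 64.0% in MOPS. Shares and sums over several genes depend on the lengths used. From CPM with no division by length, the copies went from 5.78% to 39.2% in HEPES and from 4.99% to 30.1% in MOPS, and Mcl1 kept 58.9% and 67.6% after LPS. After LPS, Bcl2a1d alone (745 ± 16.0 CPM per kilobase) exceeded Mcl1 (532 ± 7.75) in HEPES, while in MOPS Mcl1 (412 ± 11.7) exceeded Bcl2a1d (340 ± 20.9). From CPM with no division by length, Mcl1 exceeded Bcl2a1d with LPS in both media (1819 against 643 in HEPES, 1408 against 294 in MOPS). The value of Bcl2a1d as a single copy is also uncertain. Bcl2l1 was at most 6.87% and Bcl2 at most 1.36% of the sum in any library. The 2 effectors summed to between 82.6 and 103 CPM per kilobase in every library, and the ratio of pro-survival sum to effector sum went from 3.85 ± 0.04 to 21.4 ± 0.67 in HEPES and from 2.54 ± 0.05 to 11.7 ± 0.47 in MOPS. With no division by length this ratio went from 6.58 ± 0.16 to 18.7 ± 0.54 and from 4.51 ± 0.10 to 12.1 ± 0.47.

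The pro-survival sum was also set against Bcl2l11, and what LPS did to this ratio depended on whether levels were divided by gene length. Per kilobase it was 40.8, 43.3 and 45.5 in HEPES and 92.0, 86.9 and 89.3 with LPS, and in MOPS it was 28.2, 31.0 and 28.7, and 28.0, 26.2 and 28.6 with LPS. Here the HEPES groups were apart and the MOPS groups overlapped. From CPM with no division by length, an alternative added after the data were seen, it was 15.3, 15.9 and 17.2 in HEPES and 17.7, 16.8 and 17.5 with LPS, and in MOPS 10.8, 11.8 and 11.1, and 6.14, 5.85 and 6.41 with LPS. There the HEPES groups overlapped and the MOPS libraries with LPS lay below the untreated ones. In both forms every MOPS library lay below every HEPES library. The forms differ because the copies are short (817 to 863 bases) beside Mcl1 (3418) and Bcl2l11 (8029), and the copies' part of the sum grew with LPS.

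Ratios of single genes do not have this limit, since a length then multiplies all groups alike. Mcl1 over Bcl2l11, per kilobase, was lower with LPS in both media, going from 31.1 ± 1.72 (SD, n = 3) to 24.0 ± 0.68 in HEPES and from 21.8 ± 0.98 to 9.74 ± 0.47 in MOPS. The copies, nearly equal in length, over Bcl2l11 were higher with LPS in both, going from 9.001 ± 0.86 to 64.9 ± 2.05 in HEPES and from 5.41 ± 0.45 to 17.7 ± 0.86 in MOPS. Mcl1 over Pmaip1 was 62.9 ± 6.19 in HEPES and 170 ± 4.49 with LPS, and 46.0 ± 5.71 and 63.8 ± 1.44 in MOPS. All these are RNA ratios within a library, which do not depend on library scaling, and are given with no test.

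**Figure D4:**
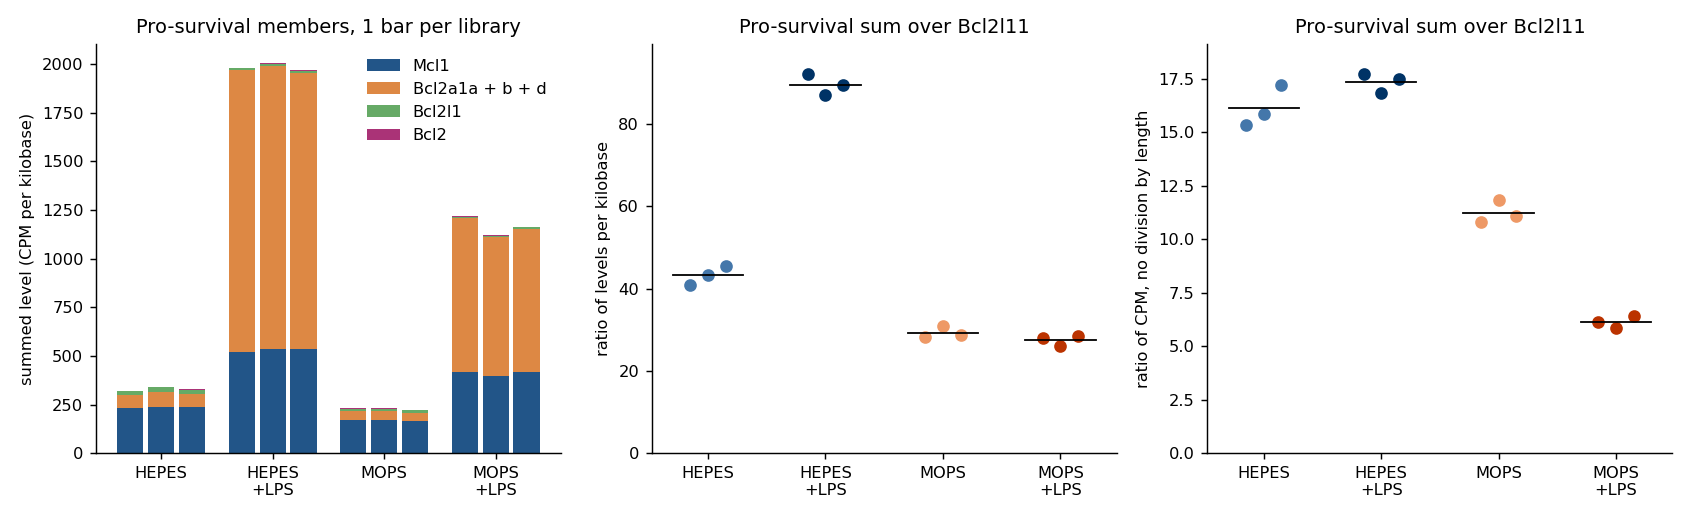
Left, summed level of the 6 pro-survival members in CPM per kilobase, 1 bar per library, split into Mcl1, the 3 Bcl2a1 copies, Bcl2l1 and Bcl2. Middle and right, the pro-survival sum over Bcl2l11 in each library (points) with the group mean (line), per kilobase and from CPM with no division by length: the HEPES groups are apart only in the middle panel and the MOPS groups only in the right one.

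Among other genes of the family, Bcl2l2, the pro-survival gene of BCL-W, rose with LPS by 0.89 ± 0.05 (log2) in HEPES and by 0.50 ± 0.05 in MOPS (edgeR adjusted p = 4.12e-16 and 7.09e-10). The latter is smaller than the shift that total counts alone would bring. The difference was -0.39 ± 0.07 (adjusted p = 9.26e-05). Bok, the third effector, had 7 to 42 counts per group of 3 libraries. With LPS it was called higher in MOPS (log2 1.81 ± 0.62, adjusted p = 0.0144), from 27 counts against 7.

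The 4 other BH3-only genes that were tested, of 6, all fell with LPS in both media, the opposite of Bcl2l11. The share of all genes that fell was 41.2% in HEPES and 34.9% in MOPS. Bmf, whose protein is tied to the cytoskeleton, was at 12.6, 11.1 and 12.1 CPM in HEPES and at 17.0, 17.5 and 16.8 CPM in MOPS. With LPS Bmf was at 0.599, 0.905 and 0.445 CPM in HEPES and at 2.26, 1.75 and 2.54 CPM in MOPS, an 18.2-fold and a 7.89-fold fall (edgeR adjusted p = 7.38e-20 and 5.36e-19). The 4 groups were separate. Bbc3, the gene of PUMA and a p53 target, was at 30.8 to 33.9 CPM in all untreated libraries, at 9.31, 10.5 and 10.1 CPM in HEPES with LPS and at 17.5, 12.4 and 14.3 CPM in MOPS with LPS. Both genes fell less in MOPS, by 1.20 ± 0.27 for Bmf and 0.58 ± 0.12 for Bbc3 on the log2 scale (edgeR adjusted p = 0.00054 and 0.000362). Bid, which links death receptors to mitochondria, fell further in MOPS (-1.01 ± 0.11) than in HEPES (-0.42 ± 0.09), with a difference of -0.60 ± 0.14 (adjusted p = 0.00124). Bad, whose protein is inactivated by survival-factor kinases, fell by 0.75 ± 0.09 in HEPES and by 0.36 ± 0.09 in MOPS on the log2 scale, and the difference was called (0.38 ± 0.13, adjusted p = 0.0162). With LPS, Bmf (1.72 ± 0.24) and Bbc3 (0.56 ± 0.10) were higher in MOPS than in HEPES, Bid was lower (-1.03 ± 0.11), and Bad was at 0.22 ± 0.10 (adjusted p = 0.0515). Hrk had no counts and Bik too few to test.

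**Figure D5:**
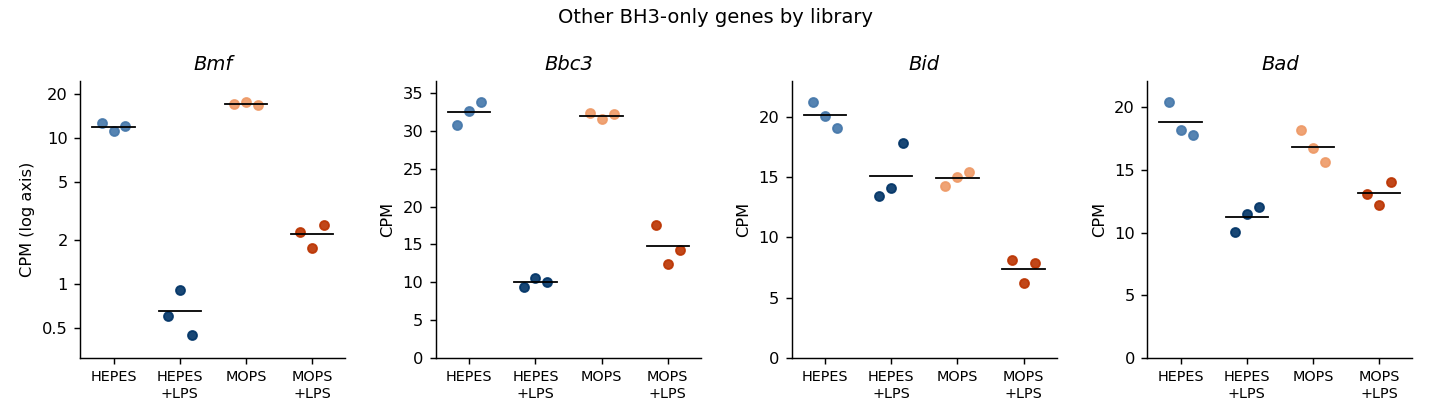
TMM-scaled CPM of Bmf (log axis), Bbc3, Bid and Bad (linear axes from 0) in each library (points) with the group mean (line). Each gene is lower with LPS in both media. With LPS, Bmf and Bbc3 are higher in MOPS and Bid is lower.

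Of the further BCL2-like genes, 4 of 6 were tested. Bnip3 and Bnip3l, mitochondrial receptors of mitophagy known as hypoxia targets, were higher in MOPS both without LPS (log2 0.49 ± 0.08 and 0.56 ± 0.04) and with LPS (1.27 ± 0.10 and 0.87 ± 0.05). LPS changed Bnip3 by -1.31 ± 0.10 in HEPES and -0.53 ± 0.08 in MOPS, and Bnip3l by -0.49 ± 0.05 and -0.18 ± 0.04. The differences of 0.78 ± 0.13 and 0.32 ± 0.06 were both called (edgeR adjusted p = 1.9e-05 and 0.000172). Bcl2l13, another mitochondrial protein, was at 30.4 ± 0.80 CPM in HEPES and 38.5 ± 0.78 CPM in MOPS before LPS (log2 0.34 ± 0.05, adjusted p = 4.4e-06). Bcl2l12 changed with LPS by -1.76 ± 0.20 in HEPES and -1.09 ± 0.19 in MOPS.

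Downstream of the family, most genes of the apoptosome and caspase list fell with LPS. In HEPES 10 of 14 fell and 2 rose (median log2 -0.71), and in MOPS 9 fell and 3 rose (median -0.48). Of all genes 41.2% fell and 35.6% rose in HEPES, and 34.9% fell and 34.1% rose in MOPS. Casp9, the initiator caspase of the mitochondrial route, went from 54.8 ± 0.52 to 9.82 ± 1.87 CPM in HEPES and from 44.2 ± 2.34 to 11.4 ± 0.88 CPM in MOPS. Htra2, a mitochondrial protease, changed by -2.10 ± 0.07 in HEPES and by -1.16 ± 0.06 in MOPS on the log2 scale, and the difference was 0.95 ± 0.09 (edgeR adjusted p = 8.21e-10). Cycs, which encodes cytochrome c, rose by 0.96 ± 0.05 and 0.80 ± 0.05. Without LPS Casp8, the initiator below death receptors, was higher in MOPS (log2 0.60 ± 0.04). Of the whole list, MOPS had 6 genes above and 4 below their level in HEPES without LPS, and 8 above and 2 below with it. Among all genes these shares were 24.3% and 25.4% without LPS and 26.9% each with it.

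Inhibitors of apoptosis, death receptors and their adaptors rose in 8 of 15 genes and fell in 3 with LPS in HEPES, and rose in 6 and fell in 4 in MOPS, increases smaller than the scaling shift included. The shares over all genes were 35.6% and 41.2% in HEPES and 34.1% and 34.9% in MOPS, so the counts in MOPS are near the background. Cflar, which encodes the caspase-8 inhibitor FLIP, went from 244 ± 4.05 to 1886 ± 6.99 CPM in HEPES and from 246 ± 0.90 to 1749 ± 61.1 CPM in MOPS. Birc3, which encodes the ubiquitin ligase cIAP2, rose by 1.99 ± 0.05 and 1.69 ± 0.05 on the log2 scale. Fas, a death receptor, rose by 2.23 ± 0.06 in HEPES and 1.60 ± 0.06 in MOPS, and this difference was called (-0.63 ± 0.09, edgeR adjusted p = 8.82e-07). A more negative LPS change in MOPS was called for 4 genes of the list, against 17.6% of all genes, and a more positive one for 0 (21.9% of all genes).

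Genes known to induce BH3-only members did not move as 1 block. Foxo3, a transcription factor known to act on Bcl2l11, was at 96.7 ± 3.59 CPM in HEPES and 109 ± 2.53 CPM in MOPS, and with LPS at 10.9 ± 0.71 and 23.5 ± 1.76 CPM. Foxo3 fell with LPS in both media and fell less in MOPS (difference 0.94 ± 0.09, edgeR adjusted p = 4.38e-10). Ddit3, the stress factor CHOP, changed by -1.37 ± 0.05 in HEPES and -1.85 ± 0.05 in MOPS. Trib3, a pseudokinase induced by CHOP, was 0.97 ± 0.05 higher in MOPS without LPS and lower with it (-0.30 ± 0.06). Of 10 genes of p53 and its targets, 4 rose and 5 fell with LPS in HEPES, and 3 rose and 6 fell in MOPS, where 35.6% of all genes rose and 41.2% fell in HEPES and 34.1% rose and 34.9% fell in MOPS. Cdkn1a, the cell cycle inhibitor p21, rose by 2.86 ± 0.04 and 2.28 ± 0.04, and Mdm2, the ligase that limits p53, by 2.93 ± 0.04 and 2.37 ± 0.04. Sesn1, a stress-induced inhibitor of growth signalling, changed by -4.96 ± 0.06 in HEPES and -2.84 ± 0.06 in MOPS. Without LPS 7 of the 10 were higher in MOPS and 1 lower (24.3% and 25.4% of all genes). These are RNA levels, and the part of any of these factors in Bcl2l11 or Pmaip1 was not tested.

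The genes most like each member were found by Pearson's r of log2 CPM over the 12 libraries, among 7957 protein-coding genes of at least 10 CPM on average. All 12 points share the same 4 groups, so high values are common and r is a description. Nearest to Mcl1 were Samsn1 (r = 0.9987) and Snx20 (0.9986), and nearest to Bcl2a1a were Gpr84 (0.9994) and Slc15a3 (0.9991). For Bcl2a1b they were Ezr (0.9989) and Marcksl1 (0.9987), and for Bcl2a1d Sdc4 (0.9994) and Slc15a3 (0.9993). Bcl2 was closest to Fzd7 (0.9888) and Naip1 (0.9864), and Bcl2l1 to Ccar2 (0.9883) and Tmem229b (0.9883). Bcl2l11 was closest to Txn1 (0.9962) and Aph1b (0.9947). Pmaip1 was closest to Hspa4l (0.9832) and, well behind, Tob2 (0.9573). The effectors had less close neighbours, Hnrnpul2 (0.962) for Bax and Phax (0.969) for Bak1.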

How the data were processed

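Gene expression was measured by RNA-seq (NEBNext Ultra libraries, per the labels' protocols) in 12 libraries, 3 in each of 4 groups. The deposited table holds raw counts per gene made by the authors, together with gene lengths in bases, per the file headers. The submitters' processing notes name CASAVA 1.8, HISAT2 2.0.5, featureCounts 1.5.0-p3 and the build mm10, without their roles. Not given in the sources used here are the annotation release, the strand setting, the read length and the treatment of multi-mapping reads. The 12 FPKM columns and the authors' own comparisons were not used. No gene name was blank (0 of 54532).

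The counts were fitted with edgeR 4.0.16 in R 4.3.3. Genes were kept by filterByExpr (14506), libraries were scaled by TMM, and 1 mean per group was estimated in a robust quasi-likelihood fit over all 12 libraries (8 residual degrees of freedom). P-values were Benjamini-Hochberg adjusted over all genes tested, and genes were called under 0.05. Standard errors are the log2 fold change divided by the root of the F statistic, and are approximate. The code was tested on simulated data. With 3 libraries a group, precision rests on the spread shared across groups (common biological coefficient of variation 4.62%). Pairs of libraries within a group differed more than counting error allows (chi-square over degrees of freedom 2.66 to 6.54, for genes with at least 20 counts), so none is a repeat deposit.

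The 10 members, the other lists and the motifs were chosen with earlier results of these data known. Named are all members, every tested gene of the BCL2-like lists, up to 4 genes of each other list by smallest p per contrast, and the 2 most like genes of each member (prior count 2 for log2 CPM). Some genes that this rule names are not reported here. Levels per kilobase divide CPM by the gene length in the table. Alternatives were DESeq2 1.42.0, RLE size factors, total counts alone, no filter, at least 10 counts in 3 libraries, only the groups compared, the Bcl2a1 copies summed, and leaving out each library. Ratios and sums of levels were repeated with no division by gene length, a choice made after seeing the data. Promoters are RefSeq's on GRCm38.p6 and coding sequences GENCODE vM21's, read with Biopython 1.88. Positions of 9 of the 10 members are the same in GENCODE vM21 as in the table, and those printed are the table's.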

Additional observations from a re-analysis of the deposited data

Results flagged for a closer look

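For 5 members the LPS change itself differed between the media, by edgeR's quasi-likelihood test of the difference (LPS change in MOPS minus LPS change in HEPES, log2, 3 libraries a group). It was 0.95 for Bcl2 (adjusted p = 3.86e-07), 0.90 for Bcl2l11 (1.79e-12) and 1.06 for Pmaip1 (2.69e-07), more positive in MOPS. It was -0.25 for Bcl2l1 (adjusted p = 0.037) and -0.63 for Bcl2a1d (2.47e-07), more negative in MOPS. Bcl2 fell in both media but less in MOPS, Bcl2l11 rose in both but more in MOPS, and Pmaip1 is the only one of the 5 with calls in opposite directions, of which the fall in HEPES was lost under several alternatives. Bcl2a1d shares much of its sequence with the other copies, whose sum gave -0.25. Among all genes 39.4% were called in this test, so a call by itself does not set a member apart.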

How the results depend on the processing

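The log2 fold changes and calls of the members were recomputed under up to 7 other settings (the fit of the compared groups only was not run for the difference of the LPS changes, and the summed copies apply to Bcl2a1 alone) and without each of the 12 libraries. Genes of the other lists were not refitted. Of 905 such values for single members, 860 kept direction and call. In part of these the library left out belonged to a group not compared, so the compared libraries stayed the same. The number of members called stayed within 8 to 10 for LPS in HEPES, 9 to 10 in MOPS, 5 to 6 for media without LPS, 10 with LPS and 4 to 6 for the difference of the LPS changes. Signs turned with total counts alone for Bax (LPS in HEPES -0.53, in MOPS -0.37) and Bak1 (-0.30 and -0.41), and with no filter for Bax in HEPES (-0.000532). Those with total counts alone were all called, and the value with no filter was not. Between untreated media, Pmaip1 was at 0.000955 by DESeq2 and 0.000657 with RLE factors and ranged from -0.0903 to 0.0666 over left-out libraries, and Bcl2l11 ranged from -0.00778 to 0.0674. None of these media values was called. With the copies summed, the difference of LPS changes was -0.25 where Bcl2a1b alone gave 0.12. Other calls lost or gained are given beside each gene in the text, except that with total counts alone the difference of LPS changes was also called for Bax (adjusted p = 0.0371). The causes were not tested. The pro-survival sum over Bcl2l11 depends on division by gene length, as given in the text.

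No paired analysis was possible because the groups share no replicate numbers. The lowest total of a member over the libraries of a group was 374 counts (Bcl2a1a in MOPS), while Bok and Bcl2a1c had too few counts for firm values.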

Other observations

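Genes that act on BCL2 family proteins or on the mitochondrial membrane itself were a further list of 13, all tested. With LPS 7 rose and 4 fell in HEPES (median log2 0.20), and 10 rose and 2 fell in MOPS (median 0.22), where 35.6% and 41.2% of all genes rose and fell in HEPES and 34.1% and 34.9% in MOPS, both medians being smaller than the shift that total counts alone give to those comparisons. Usp9x, a deubiquitinase known to stabilise MCL1, rose by 1.02 ± 0.04 in HEPES and 0.80 ± 0.04 in MOPS. Fbxw7, a ubiquitin ligase component that targets MCL1 among others, was at 40.3 ± 1.07 CPM in HEPES and 28.0 ± 1.54 CPM in MOPS, and with LPS at 30.2 ± 1.05 and 32.6 ± 2.66 CPM. Its LPS change differed between media by 0.64 ± 0.09 (edgeR adjusted p = 6.37e-07), falling in HEPES (-0.42 ± 0.06) and rising in MOPS (0.22 ± 0.06), where the rise is smaller than the shift of that comparison with total counts alone.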
